A study of Mus musculus with 2 samples.

Results

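Described here are 8 enzymes of cholesterol synthesis that are targets of the transcription factor SREBP2, read on 2 Affymetrix MG_U74Av2 arrays of mouse 3T3 fibroblasts. The members were fixed by name and taken as every probe set that the platform annotation maps to only 1 gene among them. This gave 13 probe sets, of 12488 on the array, for 8 genes of 8251 named genes. In pathway order the genes were Hmgcs1, Idi1, Fdps, Fdft1, Sqle, Cyp51, Msmo1 and Nsdhl. The LDL receptor gene was not analysed here.

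Cells of the fibronectin group were plated for 30 min on fibronectin, an adhesive protein of the extracellular matrix, at 10 µg/ml. Cells of the suspension group were kept unattached. Both groups were cells of the immortalised mouse embryo fibroblast line 3T3 in serum-free DMEM, with no genetic change named in the labels, and the labels do not say how long the cells had been in suspension. The series text speaks of 2 replicates, whereas the labels give 1 sample a group, and whether an array stands for 1 culture or several is not stated. With 1 array a group there is no replicate check and no p-value, so every "higher" or "lower" is a statement on this pair of arrays. Scan day, operator, chip lot and fluidics module differed between the arrays as well and cannot be told apart from the group.

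Cholesterol is built from acetyl-CoA in the cytosol and the endoplasmic reticulum. The early enzymes make mevalonate and turn it into isoprene units, which farnesyl diphosphate synthase joins into farnesyl diphosphate, a branch point that also feeds protein prenylation, dolichol and ubiquinone. Squalene synthase commits farnesyl diphosphate to sterols, squalene epoxidase prepares squalene for closing of the sterol rings, and later enzymes trim the methyl groups of lanosterol. When membrane sterol is low, SREBP2 travels from the endoplasmic reticulum to the Golgi, is cut there, and switches on nearly all genes of the pathway together through sterol regulatory elements in their promoters, commonly beside sites for the factors NF-Y and Sp1.

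On these arrays the 8 enzymes divided along the pathway into 5 that were higher on fibronectin and 3 that were not. The 5 members from squalene synthase on, Fdft1, Sqle, Cyp51, Msmo1 and Nsdhl, were each at least 1.5-fold higher on fibronectin, and above 0 under every scaling run. The 3 members that act before it, Hmgcs1, Idi1 and Fdps, were each lower by less than 1.5-fold in their brightest probe set. In the scaling as reported these 3 differences were within the SD of a ratio between probe sets of 1 gene, 0.69 on the log2 scale. Fdps reached 0.01 on that scale when the arrays were scaled to their medians, and all 3 were at least 1.5-fold lower with scaling to hybridisation spikes. Over all 6385 measured genes, 15.9% were at least 1.5-fold higher, against 5 of the 8 members, and 22.6% at least 1.5-fold lower, against 0 of the 8. With scaling to the spikes 2 members were at least 1.5-fold higher and 3 lower, beside 5.77% and 45.9% of all measured genes. The division at squalene synthase was noticed in these values and was not tested.

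To show what regulatory sequence the members have in common, the promoters of the 5 members with an entry in the RefSeq promoter table are given, each from 250 bases before to 50 after the annotated gene start, 5′ to 3′ on the gene's own strand. Capitals mark the motifs searched on both strands, which were the sterol regulatory element cores TCACNCCAC and CACCCCAC, the NF-Y box CCAAT and the Sp1 box GGGCGG. Positions are on GRCm38.p6. They are chr13:119690101-119690400 (+) for Hmgcs1, chr13:8885356-8885655 (+) for Idi1, chr5:4104648-4104947 (-) for Cyp51, chr8:64733529-64733828 (-) for Msmo1 and chrX:72918271-72918570 (+) for Nsdhl.
Hmgcs1: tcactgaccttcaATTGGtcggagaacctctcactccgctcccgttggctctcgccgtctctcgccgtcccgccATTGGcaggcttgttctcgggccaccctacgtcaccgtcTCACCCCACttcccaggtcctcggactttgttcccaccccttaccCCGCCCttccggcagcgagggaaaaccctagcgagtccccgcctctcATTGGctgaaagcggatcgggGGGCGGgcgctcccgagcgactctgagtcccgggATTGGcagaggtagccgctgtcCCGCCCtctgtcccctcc
Idi1: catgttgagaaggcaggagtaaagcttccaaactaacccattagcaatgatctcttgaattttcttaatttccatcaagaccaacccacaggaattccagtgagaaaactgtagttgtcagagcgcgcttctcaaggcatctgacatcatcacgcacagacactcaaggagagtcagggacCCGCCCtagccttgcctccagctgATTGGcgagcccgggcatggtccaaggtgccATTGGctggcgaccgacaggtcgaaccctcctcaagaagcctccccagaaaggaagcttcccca
Cyp51: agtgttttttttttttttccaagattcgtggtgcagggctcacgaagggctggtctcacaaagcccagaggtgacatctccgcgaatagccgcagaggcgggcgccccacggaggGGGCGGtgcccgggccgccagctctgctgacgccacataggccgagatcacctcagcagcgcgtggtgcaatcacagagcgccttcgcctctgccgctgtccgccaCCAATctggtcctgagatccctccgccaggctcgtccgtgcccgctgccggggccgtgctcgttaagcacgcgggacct
Msmo1: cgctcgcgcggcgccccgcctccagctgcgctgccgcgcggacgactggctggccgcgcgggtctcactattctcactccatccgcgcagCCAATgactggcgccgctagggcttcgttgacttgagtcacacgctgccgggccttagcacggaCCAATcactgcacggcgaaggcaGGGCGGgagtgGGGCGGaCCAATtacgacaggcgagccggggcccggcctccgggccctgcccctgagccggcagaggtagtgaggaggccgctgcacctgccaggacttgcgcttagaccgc
Nsdhl: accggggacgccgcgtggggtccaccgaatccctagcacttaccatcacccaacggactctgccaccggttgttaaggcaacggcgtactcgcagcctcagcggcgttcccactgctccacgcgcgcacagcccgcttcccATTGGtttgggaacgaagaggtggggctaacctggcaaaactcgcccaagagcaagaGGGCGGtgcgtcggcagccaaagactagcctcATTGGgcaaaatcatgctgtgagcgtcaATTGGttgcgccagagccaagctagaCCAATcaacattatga

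All 5 windows held an NF-Y box, against 37.4% of the 32851 promoter windows in the table, and all 5 held an Sp1 box, against 35.7%. Hmgcs1 and Nsdhl had 4 NF-Y boxes each, Msmo1 had 3, Idi1 had 2 and Cyp51 had 1. At least 2 NF-Y boxes were present in 11.7% of all windows. A sterol regulatory element core was found in Hmgcs1 alone of the 5. There TCACCCCAC began at position -137 from the start and matched both core motifs, which overlap, while 3.54% of all windows held either core. GC content was 65.7% in the Hmgcs1 window, 52.3% in Idi1, 64.7% in Cyp51, 70.7% in Msmo1 and 59.3% in Nsdhl, against a median of 52.7% over all windows. The NF-Y and Sp1 boxes were thus present on both sides of the division, in the lower Hmgcs1 and Idi1 as in the higher Cyp51, Msmo1 and Nsdhl. A match of letters describes the window and does not show that a factor binds there. Only exact matches to these cores were searched, so a window without one may still hold a variant of the sterol regulatory element.

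**Figure D1:**
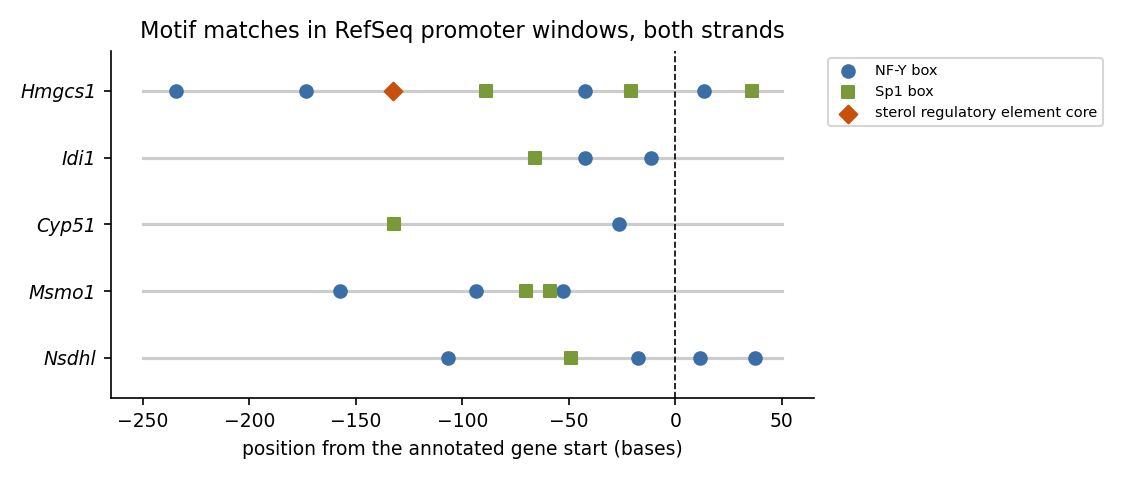
Positions of motif matches in the RefSeq promoter windows of 5 members, in bases from the annotated gene start (dashed line), with a grey line for each window of 300 bases. NF-Y boxes (circles) and Sp1 boxes (squares) lie in all 5 windows, and the sterol regulatory element core (diamond) lies in that of Hmgcs1, at -137.

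Of the 13 member probe sets, 12 were measured, that is at or above a floor of 490 in at least 1 array, and each of the 8 genes had at least 1 of them. The values are MAS5 signals scaled to a common trimmed mean, and a ratio is the log2 signal on fibronectin minus that in suspension, with signals below the floor set to it. As a measure of error, the SD of a ratio was taken from how far the probe sets of 1 gene differed, and was 0.69 on the log2 scale over 1146 genes with several measured probe sets and 0.43 over 178 such genes in the highest tertile of signal. This SD holds differences between probe sets within a pair of arrays and not the spread between cultures. The negative control probe sets reached a 95th percentile of 1873 on fibronectin and 1403 in suspension. Of the 12 measured member probe sets, 4 lay above it in both arrays and 6 in neither.

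Hmgcs1, the HMG-CoA synthase that makes the substrate of the rate-limiting reductase, had a signal of 1196 on fibronectin and 1589 in suspension, a log2 ratio of -0.41. Idi1, the isomerase of isopentenyl diphosphate, had 679 on fibronectin and 916 in suspension, a log2 ratio of -0.43. Both differences were smaller than the SD of a ratio, and in both arrays Idi1 stayed under the 95th percentile of negative controls.

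Fdps, the farnesyl diphosphate synthase, was read by 4 probe sets. The brightest, 99098_at, had 3388 on fibronectin and 3888 in suspension, a log2 ratio of -0.20. Next in brightness was 160424_f_at with 2089 on fibronectin and 2909 in suspension, a log2 ratio of -0.48. It was followed by 162281_at, with 698 on fibronectin and 1236 in suspension, a log2 ratio of -0.82. The remaining set, 162217_r_at, lay below the floor in both arrays, with 401 on fibronectin and 414 in suspension. All 3 measured sets of Fdps were thus lower on fibronectin, by amounts from 1.15-fold to 1.77-fold, and the brighter the set, the smaller its difference, which for 99098_at turned to 0.01 on the log2 scale under median scaling. In Affymetrix naming, _f marks a set that can also detect relatives of the gene and _r one for which some rules of probe choice were dropped. Probe sets of 1 gene read the same RNA and are not replicates.

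Fdft1, the squalene synthase, stood at 2108 on fibronectin and 671 in suspension, 3.14-fold higher (log2 ratio 1.65). Its suspension signal was within the range of the negative controls, so the size of this fold is uncertain. Sqle, the squalene epoxidase and another control point of the pathway, had the highest ratio of the members, 3.21-fold, with 7710 on fibronectin and 2400 in suspension (log2 ratio 1.68). Both signals of Sqle lay above the 95th percentile of negative controls, and its ratio of 1.68 compares with an SD of 0.43 for probe sets of such brightness. Of all measured genes, 98.9% had a lower ratio than Sqle and 98.8% a lower ratio than Fdft1.

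Cyp51, the demethylase that acts first on lanosterol, had 812 on fibronectin and 288 in suspension. Its suspension signal lay below the floor, so with that floor Cyp51 was at least 1.66-fold higher. Msmo1, the oxidase of the C4 methyl groups, had 1499 on fibronectin and 837 in suspension, 1.79-fold higher (log2 ratio 0.84). In both arrays Cyp51 and Msmo1 stayed under the 95th percentile of negative controls, so the size of both folds is uncertain. The Msmo1 ratio exceeded the SD of a ratio only slightly.

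Nsdhl, the sterol dehydrogenase that works with Msmo1 in removing these groups, was read by 3 probe sets, all higher on fibronectin. The brightest, 98631_g_at, had 3501 on fibronectin and 2044 in suspension, 1.71-fold higher. The set 98630_at had 1515 on fibronectin and 947 in suspension, 1.60-fold higher. The set 93868_at had 1363 on fibronectin and 430 in suspension, below the floor, and was at least 2.78-fold higher. In both arrays 98630_at and 93868_at stayed under the 95th percentile of negative controls, and with a 60th percentile floor 93868_at had a log2 ratio of at least 0.37. The log2 ratio of the brightest set, 0.78, compares with an SD of 0.43 for probe sets of such brightness.

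**Figure D2:**
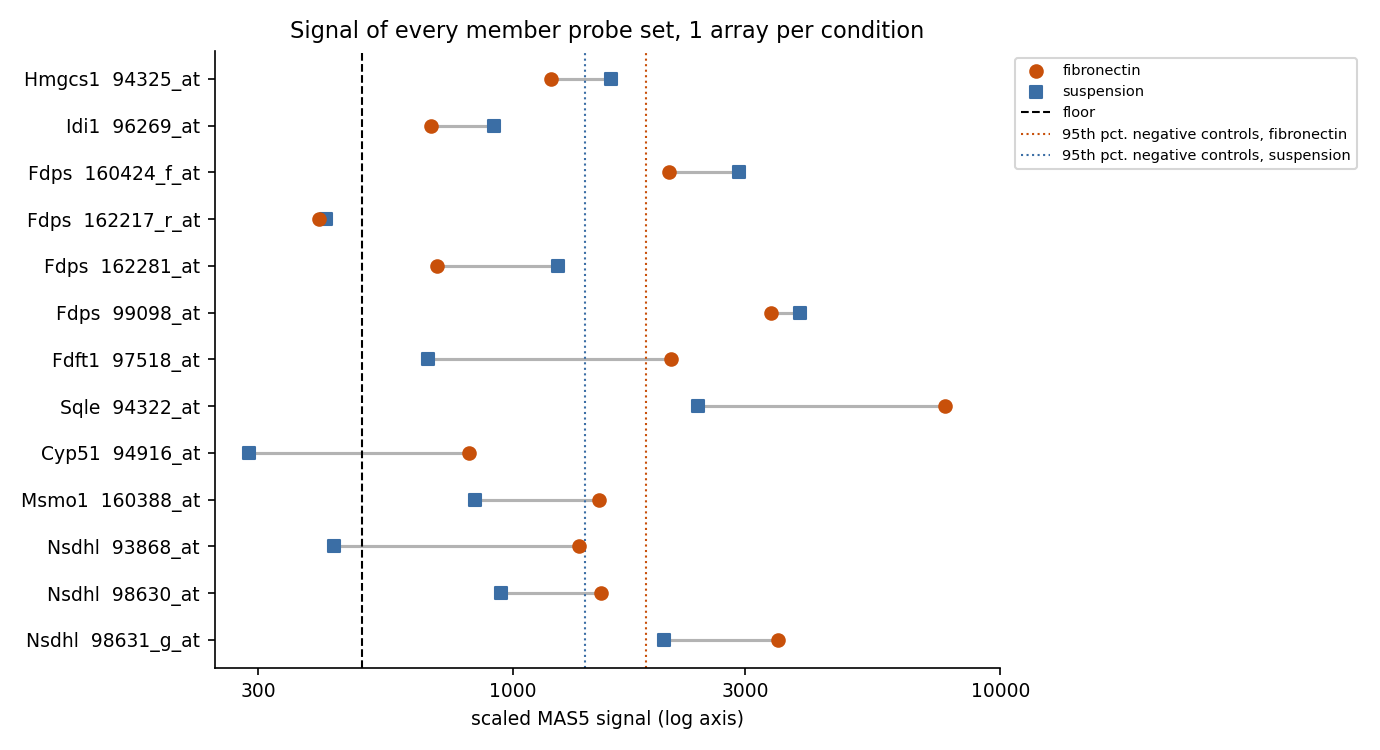
Scaled MAS5 signal (log axis) of each of the 13 member probe sets on the fibronectin array (circles) and the suspension array (squares), in pathway order, with the floor of 490 (dashed) and each array's 95th percentile of negative controls (dotted). The circle lies right of the square for all probe sets from Fdft1 down, and left of it for those of Hmgcs1, Idi1 and Fdps, of which 99098_at turns to 0.01 on the log2 scale under median scaling. Sqle is the brightest on fibronectin, at 7710.

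The median log2 ratio of the 8 members was 0.75, beside -0.09 over all measured genes. At 2-fold, 2 members were higher, Fdft1 and Sqle, and 0 lower, against 5.79% and 9.27% of all measured genes. By signal, Fdps, Sqle and Nsdhl belonged to the highest tertile of measured genes, of which 16.9% were at least 1.5-fold higher. Hmgcs1, Fdft1 and Msmo1 belonged to the middle tertile with 14.6%, and Idi1 and Cyp51 to the lowest with 16.2%. The share of genes at least 1.5-fold higher was thus similar at all levels of signal, while the share at least 1.5-fold lower was 28.2% in the lowest tertile, 29.0% in the middle and 10.5% in the highest.

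**Figure D3:**
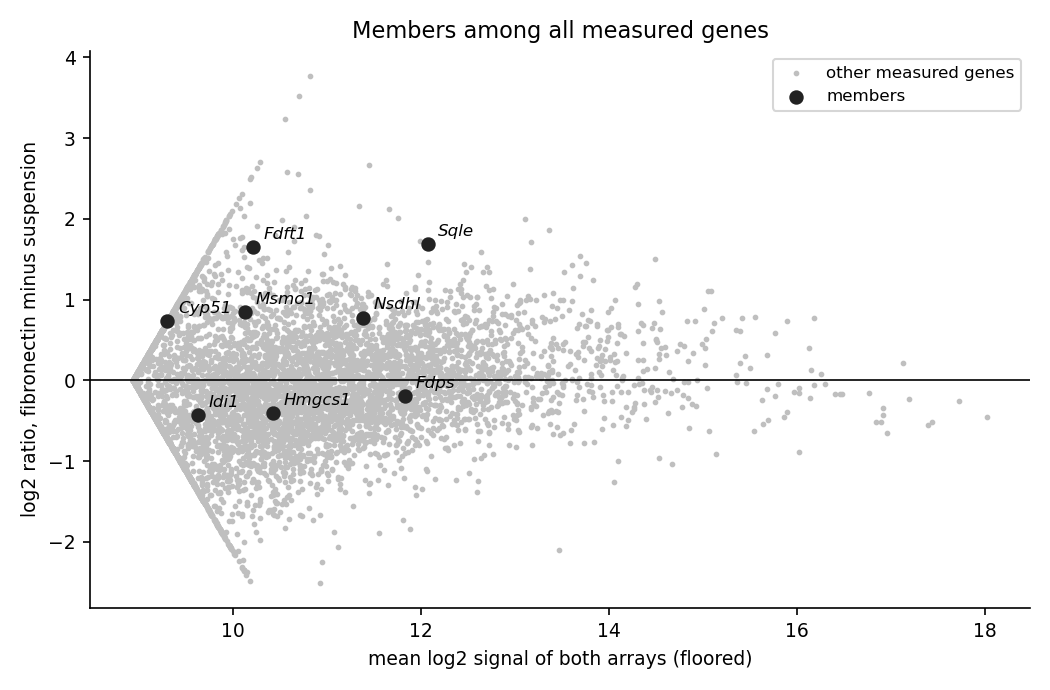
Log2 ratio, fibronectin minus suspension, against the mean log2 signal of both arrays (floored) for all 6385 measured genes (grey) and the 8 members (black, named). Sqle and Fdft1 lie near the upper edge of the cloud, above 98.9% and 98.8% of genes, while Hmgcs1, Idi1 and Fdps lie just below 0 (Fdps at 0.01 under median scaling); the slanted edges on the left are genes with 1 array at the floor.

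The other enzymes of the pathway were read from a list of 14 genes, of which 9 had a probe set and 8 were measured. At least 1.5-fold higher were 3 of the 8, and 1 was at least 1.5-fold lower, against 15.9% and 22.6% of all measured genes. Before squalene synthase, Mvk, the mevalonate kinase, had 2531 on fibronectin and 2857 in suspension, a log2 ratio of -0.17. Mvd, the decarboxylase of mevalonate diphosphate, had 1273 on fibronectin and 2178 in suspension and was 1.71-fold lower. With the 3 members, all 5 measured enzymes before squalene synthase thus had a ratio below 0, except Mvk and Fdps under median scaling, as had 55.1% of all measured genes. The division was drawn from the members, so of these 5 only Mvk and Mvd lay outside the genes that set it.

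After squalene epoxidase the other enzymes were mixed. Lss, the lanosterol synthase, was the exception to the higher signals there, with 990 on fibronectin and 1273 in suspension (log2 ratio -0.36). Lbr, a sterol reductase that also anchors chromatin at the nuclear envelope, was at least 3.88-fold higher, with 1902 on fibronectin and 119 in suspension. The fibronectin signal of Lbr lay just above the 95th percentile of negative controls there, 1873, and its suspension signal lay under that of its array. With a floor at the negative controls its log2 ratio was at least 0.22, so the size of this fold is uncertain. Tm7sf2, the other reductase of the step of Lbr, had 2004 on fibronectin and 1817 in suspension (log2 ratio 0.14), and its dimmer probe set was at least 1.25-fold lower.

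Ebp, the sterol isomerase, was 1.71-fold higher, with 1161 on fibronectin and 680 in suspension, both under the 95th percentile of negative controls, so the size of this fold is uncertain. Sc5d, the desaturase of lathosterol, was at least 1.92-fold higher in 102769_f_at and at least 1.08-fold lower in 102768_i_at. Dhcr7, which completes cholesterol, was at least 1.05-fold higher, with 516 on fibronectin and 291 in suspension. All signals of Sc5d and Dhcr7 lay under the 95th percentile of negative controls, so their folds are uncertain as well. The dehydrogenase gene Hsd17b7 was below the floor in both arrays, with 320 on fibronectin and 215 in suspension. Of the 11 measured enzymes from squalene synthase on, members included, 10 had a ratio above 0, as had 44.9% of all measured genes. At least 1.5-fold higher were 8 of the 11, against 15.9% of all measured genes. The division was drawn from the ratios of the members, so these pooled counts do not test it. Of the 6 measured enzymes among the 11 that are not members, 5 had a ratio above 0 and 3 were at least 1.5-fold higher. With scaling to the spikes 8 of 10 measured enzymes, members included, had a ratio above 0. In that scaling 4 of 10 were at least 1.5-fold higher and 1 lower, beside 5.77% and 45.9% of all measured genes. The count at least 1.5-fold higher was 4 of 8 with a 60th percentile floor and 2 of 5 with a floor at the negative controls. The shares of all measured genes under these floors were 13.42% and 13.05%.

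**Figure D4:**
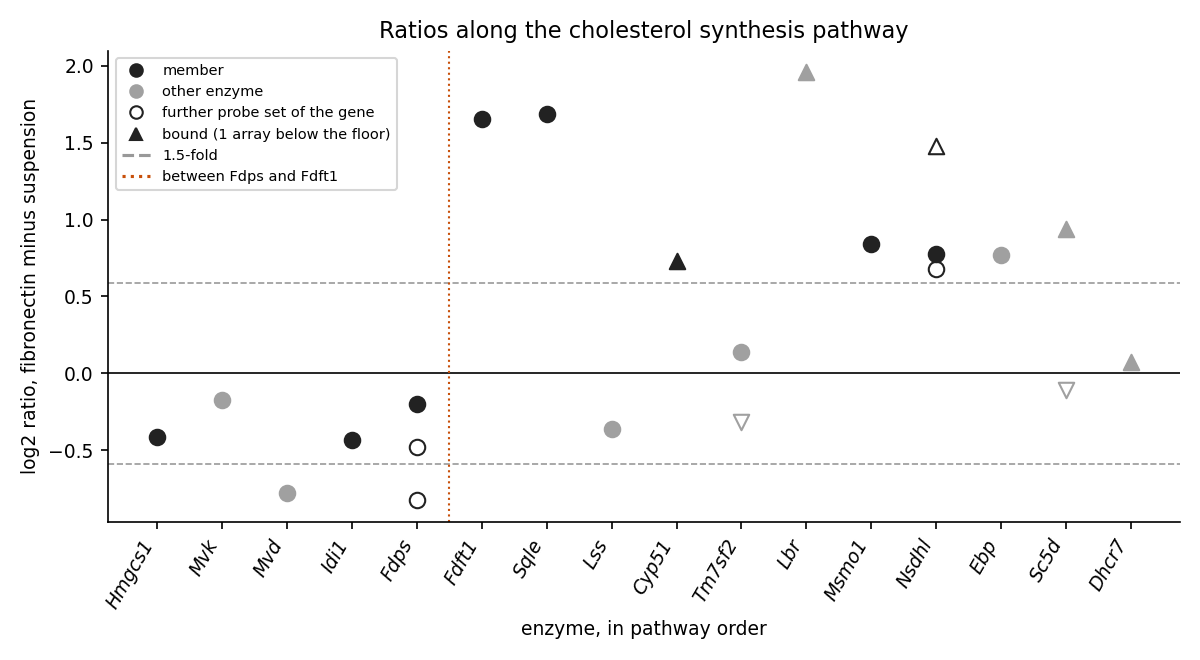
Log2 ratio, fibronectin minus suspension, of each measured probe set of the members (black) and of the other listed enzymes (grey), in pathway order. Filled symbols are the brightest probe set of a gene, open symbols further sets, triangles bounds with 1 array below the floor, and dashed lines mark 1.5-fold. All 5 genes left of the dotted line lie below 0, where Mvk and Fdps move above 0 under median scaling, and 10 of the 11 right of it lie above 0, where Lss is the exception and Tm7sf2 moves below 0 with scaling to the spikes. The dotted line was placed after the ratios of the members were seen.

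The ratios of all genes depend on how the arrays are scaled. The median ratio of all measured genes was 0.11 under median scaling and -0.51 when the arrays were set to the 9 spike probe sets, which read bacterial transcripts added to each hybridisation. Relative to the median of all genes, the 5 members from Fdft1 on lay above it and Hmgcs1, Idi1 and Fdps below it under each of these and under quantile and loess normalization. The sign itself was less stable, since Fdps had a log2 ratio of 0.01 under median scaling. With scaling to the spikes, Cyp51, Msmo1 and Nsdhl kept ratios above 0 but not 1.5-fold, at least 0.46 for Cyp51, 0.37 for Msmo1 and 0.30 for Nsdhl. In the same scaling Hmgcs1, Idi1 and Fdps had -0.88, -0.91 and -0.67. The difference between the median of the 5 later members and that of the 3 earlier ones was 1.25 on the log2 scale. These groups were set after the ratios were seen, so the size of this difference is no test of the division.

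**Figure D5:**
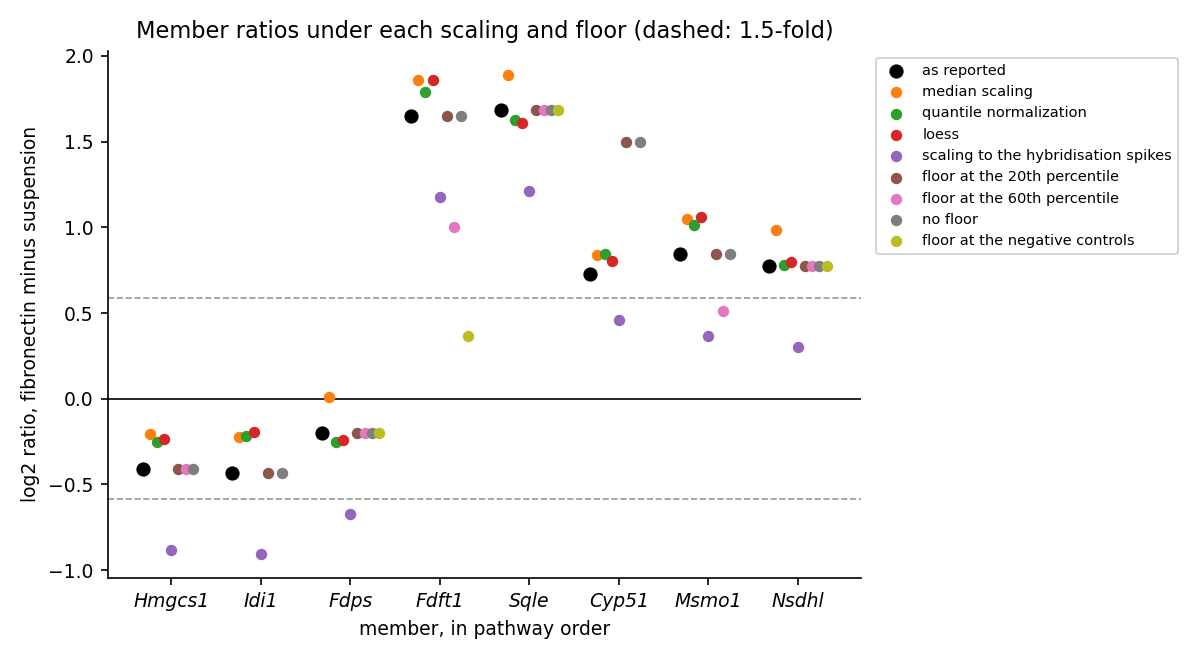
Log2 ratio, fibronectin minus suspension, of each member's brightest probe set as reported (black) and under 8 alternative scalings and floors (colours), with dashed lines at 1.5-fold; a missing point means that both arrays lay below that floor. Sqle stays between 1.21 and 1.89, and the points of Fdps include 0.01 under median scaling.

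Of the genes that sense sterols and release SREBP, 3 had a probe set and 2 were measured. Srebf1, which encodes the sister factor SREBP1, had 4888 on fibronectin and 4227 in suspension (log2 ratio 0.21). Mbtps1, the Golgi protease that makes the first cut in SREBP, was 1.90-fold higher, with 14835 on fibronectin and 7816 in suspension. With scaling to the spikes Srebf1 had a log2 ratio of -0.26 and Mbtps1 one of 0.45, under 1.5-fold. Insig1, which holds SREBP back in the endoplasmic reticulum and is itself a target of it, was below the floor in both arrays, with 135 on fibronectin and 347 in suspension.

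Of 6 measured genes of sterol uptake and transport, 2 passed 1.5-fold upward and 0 downward, and the median log2 ratio was 0.47. The background was 15.9% upward and 22.6% downward, which also applies to the next groups in the scaling as reported. The 2 were the lipoprotein receptors Scarb1 (1.90-fold) and Lrp1 (1.63-fold), while Npc2, a lysosomal carrier of cholesterol, had a log2 ratio of 0.51 and Vldlr was at least 1.34-fold lower. Under median scaling 4 of the 6 passed upward, beside 23.3% of all measured genes, and after quantile normalization 1, beside 18.3%. With scaling to the spikes 0 of the 6 passed upward and 2 downward, beside 5.77% and 45.9% of all measured genes. Of 9 measured genes of fatty acid synthesis, 5 passed 1.5-fold upward and 0 downward, and the median was 0.59. The upward count was 3 after quantile normalization or loess, beside 18.3% of all measured genes in each. With scaling to the spikes 1 passed upward and 1 downward, beside 5.77% and 45.9%. By brightest probe set, the largest ratios were those of the desaturase Scd2 (2.36-fold) and the elongase Elovl5 (2.04-fold), followed by Me1 (1.54-fold) and Acly (1.52-fold), which supply reducing power and acetyl-CoA. The probe sets of Scd1 disagreed, with a log2 ratio of 0.59 in the brightest, 5.33-fold higher in 94057_g_at and at least 3.06-fold lower in 94058_r_at. Of 5 measured genes in the branches from farnesyl diphosphate to other products, 1 passed 1.5-fold upward and 2 downward, and the median was -0.53. With scaling to the spikes 0 passed upward and 4 downward, again beside 5.77% and 45.9%. Ggps1, the geranylgeranyl diphosphate synthase, was 1.74-fold lower and the protease gene Rce1 of prenylated proteins 1.66-fold lower, while Rabggtb had a log2 ratio of -0.53 and the methyltransferase gene Icmt was at least 1.55-fold higher. Only Abcg1 and Apoe were measured among 6 genes of cholesterol export and its regulator LXR. Abcg1, an exporter of cholesterol, was 3.67-fold lower, with 1124 on fibronectin and 4126 in suspension. On fibronectin Abcg1 stayed under the 95th percentile of negative controls, and flooring at that percentile left a log2 ratio of -1.33 as a bound. The gene Apoe was at least 1.55-fold lower. With scaling to the spikes the median of the uptake genes was -0.01 and that of the fatty acid genes 0.12. The medians of the sensing, farnesyl diphosphate and export genes kept their signs under the 4 scalings run, though Srebf1 turned below 0 with the spikes.

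Of 13 fibroblast markers with a probe set, 12 were at or above the floor on fibronectin and 12 in suspension, among them the collagen gene Col1a1, while Thy1 was below it in both. Their summed signals were 254259 on fibronectin and 168579 in suspension, and the median log2 ratio of the 12 measured markers was 0.53. Of these 12, 6 were at least 1.5-fold higher and 1 lower, Vim at 2.07-fold, against 15.9% and 22.6% of all measured genes. This count was made in the scaling as reported only. The part of the fibroblast markers in the ratios of the members was not tested. Of 17 markers of epithelium, blood, endothelium, liver and fat, 6 were at or above the floor on fibronectin and 9 in suspension. Above the 95th percentile of negative controls lay 0 of these 17 on fibronectin and 2 in suspension, Cdh1 and Csf1r. Of the 13 fibroblast markers, 10 lay above it on fibronectin and 11 in suspension. The summed signals of the 17 markers of other cell types were 7641 on fibronectin and 11925 in suspension. None of the 17 was at 0, and their part in the ratios was not tested.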

How the data were processed

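The deposited intensities are linear MAS5 signals, one for each probe set, per the submitters' processing notes. No source used here gives the MAS5 version or its scaling target. The other deposited files hold instrument settings. The arrays were brought to a common 2% trimmed mean, computed without control probe sets. A floor of 490 was set from the 40th percentiles, averaged over the arrays. A ratio with 1 array below it is a bound. A gene was read from its probe set with the highest mean log2 signal. Gene names came from the platform annotation, which gave 10833 probe sets 1 symbol, 396 several and 1237 none. Negative controls were 34 antisense, bacterial and yeast control probe sets.

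No test was made, as each group has 1 array. Genes were counted at 1.5-fold and 2-fold, beside the same share of all measured genes, and 9 alternatives of scaling, floor and probe set choice were run. Promoter sequences are RefSeq's, on GRCm38.p6, and 5 of the 8 members matched by symbol. The members, the lists and the rule for named genes (every member probe set, every measured other enzyme and sensor, and up to 4 genes with the largest ratios from each further list) were chosen with earlier results of these data known. The ratio code was tested on simulated data. The number of arrays limits the precision. Calculations used Python with numpy, pandas, scipy and statsmodels.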

Additional observations from a re-analysis of the deposited data

How the results depend on the processing

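Under 9 alternatives, the median log2 ratio of the members ranged from 0.34 with scaling to the hybridisation spikes to 0.91 under median scaling. The count of members at least 1.5-fold higher, 5 of 8 as reported, was 3 of 6 measured after raising the floor to the 60th percentile, 2 of 4 at a negative control floor (their 95th percentile), and 2 of 8 with scaling to the spikes, where the count at least 1.5-fold lower was 3 instead of 0. In the first of these, Msmo1 fell under 1.5-fold and Cyp51 was not measured. Of all measured genes, 13.42% were at least 1.5-fold higher at the 60th percentile floor and 13.05% at the negative control floor. With scaling to the spikes the shares were 5.77% higher and 45.9% lower. These shares of higher genes also stand beside the counts of other enzymes below. The count at 2-fold, 2 as reported, was 1 at the negative control floor, and 3 with a 20th percentile floor, no floor, median scaling, quantile normalization or loess. Of the other enzymes, 3 of 8 as reported, 1 of 6 passed 1.5-fold at the 60th percentile floor, 0 of 4 at the negative control floor and 2 of 7 with scaling to the spikes. The difference between later and earlier members, 1.25, kept its sign in the 9 alternatives, with 0.97 at the negative control floor and 1.91 without a floor, but this comparison was added after the values were seen. At the negative control floor the difference set 3 later members against 1 earlier member, Fdps, and at the 60th percentile floor 4 against 2. The log2 ratio of Fdft1 was at least 0.36 at the negative control floor, against 1.65 as reported. Signal over background limits Hmgcs1, Idi1, Cyp51, Msmo1, the suspension signal of Fdft1, and the probe sets 162281_at, 98630_at and 93868_at. Scaling moved the share of higher and lower genes, with 1490 genes at least 1.5-fold higher and 983 lower under median scaling, 367 and 2919 with the spikes, and 1014 and 1440 as reported. No paired analysis was possible because each group has 1 array.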
